A study of Homo sapiens with 10 samples.

Results

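SOXB genes belong to the SOX transcription factor family, and those followed here mark neural progenitors. They were followed here as 4 genes, SOX1, SOX2, SOX3 and SOX21, taken by symbol from 24050 genes listed in either of the deposited count tables. Below, the SOXB genes are these 4. RNA-seq was performed on 10 libraries. HEK293T cells, a line derived from human embryonic kidney, were represented by 3 wild-type (WT) libraries, S15, S16 and S17, and by 3 ZNF274 knockout (KO) libraries, S18, S19 and S20. Neural progenitor cells (NPCs), obtained from H1 human embryonic stem cells through embryoid bodies, were represented by 2 WT libraries, S3 and S5, and by 2 ZNF274 KO libraries, S1 and S2. ZNF274, a KRAB zinc finger protein that recruits heterochromatin factors, had been knocked out homozygously with CRISPR-Cas9 and guides on either side of the gene. HEK293T transfectants were sorted as single cells, and the series describes its replicates as independent clones, but the labels do not name the clone behind each library. The p-values therefore measure the spread between these libraries. In the NPC groups the KO was made in the stem cells, so that a KO effect includes any difference in how the clones became NPCs.

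SOX proteins bind DNA through an HMG box, a domain that bends the double helix. SOX1, SOX2 and SOX3 form the SOXB1 group, which activates transcription, maintains the progenitor state and often binds next to a POU factor. SOX21 belongs to the SOXB2 group, which acts as a repressor and opposes SOXB1 factors as progenitors move toward neurons. SOX2 is also a pluripotency factor of embryonic stem cells, whereas SOX1 appears with neural induction.

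All of the 4 genes have a single exon. In hg19, SOX1 (ENSG00000182968) lies on chromosome 13 from 112721463 to 112726020 on the plus strand, and SOX2 (ENSG00000181449) on chromosome 3 from 181429713 to 181432224 on the plus strand. SOX3 (ENSG00000134595) lies on chromosome X from 139585150 to 139587234 on the minus strand, and SOX21 (ENSG00000125285) on chromosome 13 from 95361876 to 95364799 on the minus strand. Their coding sequences resemble each other most within the HMG box, and only uniquely mapped reads were counted, so the likeness bears on which reads could be assigned. A stretch of 210 coding bases from this box is given for each member, read from hg19 in the direction of transcription, with capitals at positions that are not the same in all of the 4.
SOX1: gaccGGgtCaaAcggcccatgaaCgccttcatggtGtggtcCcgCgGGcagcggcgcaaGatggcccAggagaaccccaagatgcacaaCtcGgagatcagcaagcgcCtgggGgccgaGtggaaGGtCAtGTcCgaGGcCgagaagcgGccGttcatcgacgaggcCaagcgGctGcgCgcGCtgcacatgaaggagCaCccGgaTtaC
SOX2: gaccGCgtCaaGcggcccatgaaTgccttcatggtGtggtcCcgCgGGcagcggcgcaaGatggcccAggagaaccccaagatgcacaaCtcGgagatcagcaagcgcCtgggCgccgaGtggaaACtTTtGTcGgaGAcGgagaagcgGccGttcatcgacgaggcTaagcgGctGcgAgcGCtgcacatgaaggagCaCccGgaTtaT
SOX3: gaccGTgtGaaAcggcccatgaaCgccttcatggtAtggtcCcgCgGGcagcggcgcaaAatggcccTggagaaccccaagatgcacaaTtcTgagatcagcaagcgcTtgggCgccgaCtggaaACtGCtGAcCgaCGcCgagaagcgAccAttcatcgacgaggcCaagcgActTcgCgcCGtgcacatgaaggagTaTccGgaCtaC
SOX21: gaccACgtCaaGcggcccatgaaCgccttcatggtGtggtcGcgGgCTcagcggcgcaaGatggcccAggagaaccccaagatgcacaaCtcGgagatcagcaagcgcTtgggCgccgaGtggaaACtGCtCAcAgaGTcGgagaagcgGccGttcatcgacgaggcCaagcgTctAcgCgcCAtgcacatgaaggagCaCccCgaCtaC
In this stretch 170 of 210 positions were the same in all of the 4 genes, and identity between pairs ran from 85.7% for SOX2 and SOX3 to 93.3% for SOX1 and SOX2. Over the whole transcripts the longest exact match was 89 bases between SOX1 and SOX2 and 60 bases between SOX21 and SOX2. For SOX3 it was 32 bases, a length reached both with SOX14 and with another of the 4 genes. These matches are a small part of the exonic lengths, which are 4558 bases for SOX1, 2512 for SOX2, 2085 for SOX3 and 2924 for SOX21.

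The 250 bases before the RefSeq start site (GRCh38.p14) are shown for SOX2, the member with the most counts, and for SOX21, the member that was at 0 in KO NPCs. Capitals mark every match on either strand to the SOX site ACAAAG and its variant ACAATG, to the POU octamer ATGCAAAT, to the CCAAT box, to TATAAA as the core of a TATA box and to GGGCGG as that of a GC box. None of these matches overlaps another.
SOX2: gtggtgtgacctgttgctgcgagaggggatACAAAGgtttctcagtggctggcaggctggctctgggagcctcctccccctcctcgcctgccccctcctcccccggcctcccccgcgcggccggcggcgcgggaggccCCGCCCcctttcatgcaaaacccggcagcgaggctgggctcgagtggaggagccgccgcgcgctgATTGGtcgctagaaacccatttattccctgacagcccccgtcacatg
SOX21: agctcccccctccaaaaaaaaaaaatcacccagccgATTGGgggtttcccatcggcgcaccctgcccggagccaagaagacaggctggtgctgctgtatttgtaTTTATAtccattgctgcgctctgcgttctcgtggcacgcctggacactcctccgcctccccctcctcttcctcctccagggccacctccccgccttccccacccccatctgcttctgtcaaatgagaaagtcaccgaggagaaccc
The SOX2 window is chr3:181711675-181711924 and the SOX21 window chr13:94712546-94712795, on the strand of each gene. ACAAAG matched in the SOX2 window alone among the members, and 13.7% of 35114 RefSeq windows of this length hold it. CCAAT matched in SOX2, SOX3 and SOX21 (32% of all windows), GGGCGG in SOX2 and SOX3 (42.6%) and TATAAA in SOX21 (10.7%). ACAATG, held by 9.29% of windows, and ATGCAAAT, held by 1.63%, matched in no member. The SOX1 window held none of the 6 motifs and was 82% G or C with 31 CpG dinucleotides. The windows of SOX2, SOX3 and SOX21 held 20, 17 and 11 CpG dinucleotides, against a median of 11 over all windows. The match of letters is a description of the sequence, not of binding.

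The libraries held 18621266 to 32285876 counts on genes. ZNF274 itself had 423 to 492 counts in the WT HEK293T libraries, 491 and 496 in the WT NPC libraries and 0 in all KO libraries, so the genotype labels held. Levels are given as CPM, counts scaled to a common library size after TMM normalization over all 10 libraries, and the level of 3 counts, taken as the floor, was 0.0917 to 0.154 CPM. Floors and the intervals of ratios take in counting error only, because reads without molecular identifiers are not independent molecules. NES and VIM, intermediate filament genes of neural progenitors, were at 2276 to 3210 and 5816 to 7149 CPM in all 4 NPC libraries. VIM was also at 620 to 717 CPM in WT HEK293T cells. These genes do not stand for all progenitor genes, since 15 of 17 tested, described below, were lower in KO than in WT NPCs. Of the pluripotency genes, NANOG had at most 0.238 CPM there, whereas DPPA4 was at 59.4 to 76.2 CPM in all 4 libraries and LIN28A at 64.0 and 84.8 CPM in WT and 1.15 and 1.88 CPM in KO NPCs. The kidney lineage genes PAX2 and PAX8 stayed below 1 CPM in HEK293T cells, while GATA3 and EYA1 reached 4.51 and 15.8 CPM. In these bulk samples fewer cells of a type and less RNA per cell cannot be told apart.

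In WT NPCs SOX2 was the leading SOXB gene and it was about as high in both libraries, at 228 CPM in S3 and 220 in S5. In WT HEK293T cells SOX2 was at 8.96, 11.0 and 8.55 CPM. The groups did not overlap, as for 39.3% of tested genes in this direction, and the level in NPCs was 23.6-fold higher (log2 FC 4.56 ± 0.233 SE, adjusted p = 1.69e-08). Unless another tool is named, tests are those of edgeR by quasi-likelihood, adjusted after Benjamini and Hochberg over all genes. SOX3 was at 21.8 and 34.6 CPM in the WT NPC libraries and at 0.133, 0.0690 and 0.101 CPM in the WT HEK293T libraries, which is 4, 2 and 3 counts. SOX3 thus stood near the floor in HEK293T cells and was 276-fold higher in NPCs (log2 FC 8.05 ± 0.447 SE, adjusted p = 3.19e-08). SOX1 had 154 and 989 counts in the WT NPC libraries, or 7.33 and 50.7 CPM, and 0 counts in the 3 WT HEK293T libraries. Against the floor of 3 counts over the HEK293T group it was at least 834-fold higher in NPCs (adjusted p = 1e-05). This bound was 217-fold without S5 and 1500-fold without S3.

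SOX21 did not separate the cell types in the same way. It was at 2.66, 4.04 and 2.06 CPM in WT HEK293T cells, at 3.52 CPM in the WT NPC library S3 and at 48.7 CPM in S5. The value of S3 lies inside the range of HEK293T cells, so that the groups overlap, although SOX21 was called higher in NPCs (8.69-fold over pooled counts, log2 FC 3.16 ± 0.758 SE, adjusted p = 0.00393). Without S5 the log2 FC was 0.27 with an adjusted p of 0.704. All 4 members were called higher in WT NPCs, where 40.7% of all tested genes were called and 25.2% were called higher, but with voom SOX21 was not (log2 FC 2.18, adjusted p = 0.0582). Cell type, count table and library series cannot be told apart in this comparison.

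**Figure D1:**
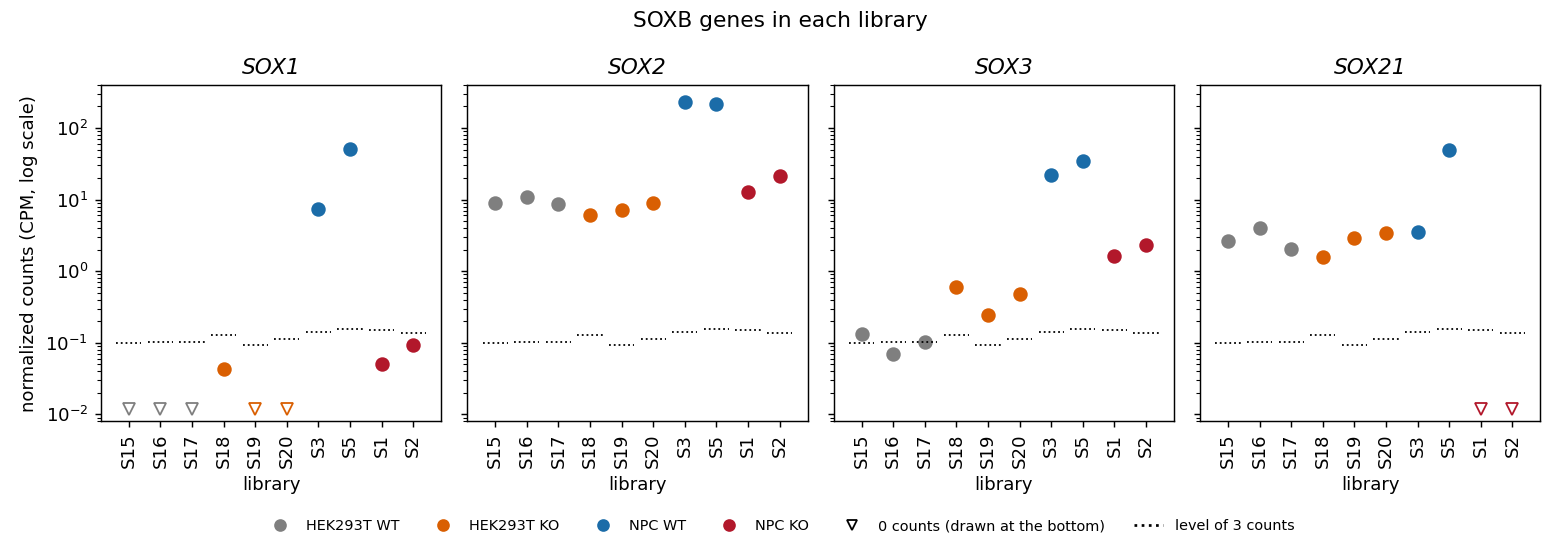
Normalized counts of SOX1, SOX2, SOX3 and SOX21 in each of the 10 libraries (CPM on a log axis, 1 point per library, coloured by cell type and genotype). Open triangles are libraries with 0 counts, drawn at the bottom of the axis, and dotted segments give the level of 3 counts in that library. SOX2 is at 228 and 220 CPM in WT NPCs and at 12.9 and 21.5 CPM in KO NPCs, and SOX21 is at 0 in both KO NPC libraries.

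Compared per kilobase of exon, SOX2 held most of the SOXB transcripts in every library. Its share of the 4 genes together ranged over 72.1 to 81.9% in HEK293T cells and over 66.3 to 88.4% in NPCs. In HEK293T cells SOX21 came second, with 16.5 to 24.7% of the CPM per kb, and SOX3 held 0.571 to 1.40% in WT and 2.94 to 9.003% in KO libraries. In the WT NPC library S3 the second was SOX3 with 10.1%, followed by SOX1 with 1.54% and SOX21 with 1.16%. In S5, SOX21 and SOX3 held 12.6% each and SOX1 held 8.44%. SOX1 and SOX3 changed places in S5 when the coding length was used in place of the exonic length, and by CPM SOX1 came second there, while SOX2 came first by CPM, by exonic and by coding length in all 10 libraries. With 2 WT NPC libraries that disagree on it, the order below SOX2 was not resolved. The summed level of the 4 genes was 104 and 132 CPM per kb in WT NPCs, and 4.16 to 5.79 CPM per kb in WT HEK293T cells.

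**Figure D2:**
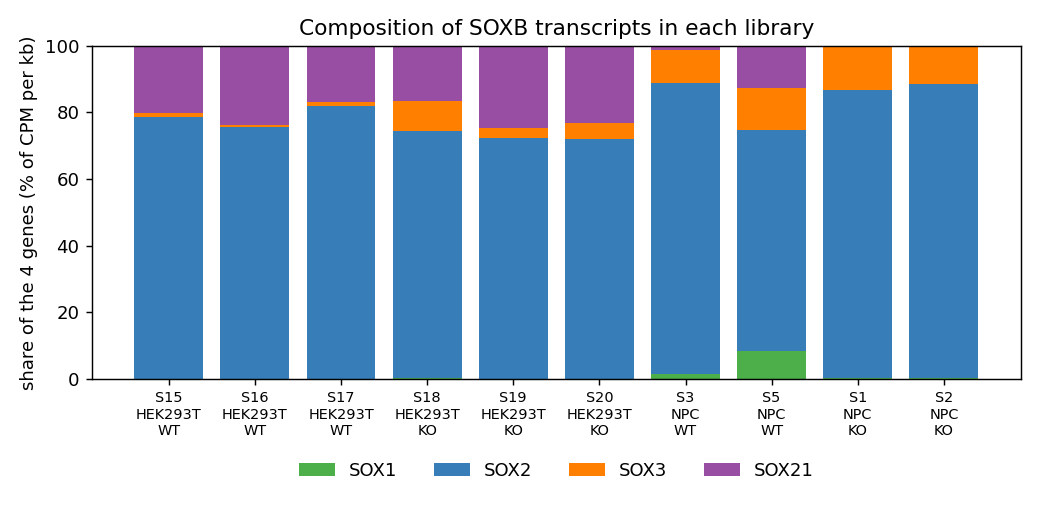
Share of each member in the summed level of the 4 SOXB genes, in percent of CPM per kb of exonic length, with 1 stacked bar for each library. SOX2 makes up 66.3% or more of every bar, SOX21 is second in the 6 HEK293T libraries, and SOX1 is visible in the WT NPC libraries, with 1.54% in S3 and 8.44% in S5.

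The WT NPC libraries differed from each other in SOX1 and SOX21 far more than in SOX2 and SOX3. SOX21 was 13.8 times as high in S5 as in S3 and SOX1 6.92 times, whereas the ratios were 1.58 for SOX3 and 0.963 for SOX2. Among 13890 genes with a mean of at least 1 CPM over the WT NPC libraries, 0.0792% were as far apart as SOX21 and 0.324% as far as SOX1. Over these genes the log2 ratio of the WT libraries had an SD of 0.513, and that of the KO libraries 0.292. SOX21-AS1 was 8.89 times as high in S5, with 65 counts in S3 and 536 in S5, and POU3F2 was 3.55 times as high. In the opposite direction MSX1 and MSX2, homeobox genes of the dorsal neural tube and neural crest, were 7.12 and 4.26 times as high in S3. Of 60 listed genes at this level, 12 differed by more than 2-fold in CPM, 6 in each direction, against 5.26% of the 13890 genes. The measures are unlike, because the 5.26% was counted after adding 0.5 CPM, which shrinks ratios of low genes such as NGFR. The 60 also include SOX1, SOX21 and SOX21-AS1. Beside MSX1 and MSX2, those higher in S3 were COL1A2, PDGFRA, PDGFRB and KRT19, at ratios of 2.24, 3.15, 2.06 and 2.11. Beside SOX21, SOX21-AS1, SOX1 and POU3F2, those higher in S5 were NGFR and FABP7, at 2.49 and 2.15. The genes of this comparison outside the SOXB loci were chosen after their values were seen. The difference between the WT libraries enters the error of each KO effect on SOX1 and SOX21 in NPCs.

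**Figure D3:**
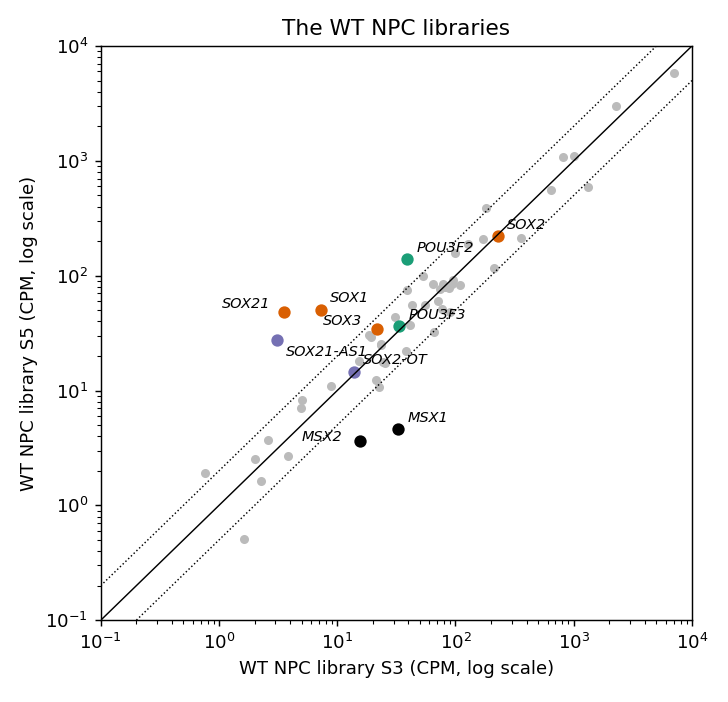
Levels of the listed genes in the WT NPC library S5 against S3 (CPM, both axes on a log scale, 1 point per gene with a mean of at least 1 CPM over both). The solid line marks equal levels and the dotted lines a 2-fold difference. SOX2 and SOX3 lie within the dotted lines, while SOX21, SOX1 and SOX21-AS1 lie above them, at ratios of 13.8, 6.92 and 8.89, and MSX1 and MSX2 below.

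In NPCs all 4 SOXB genes fell in ZNF274 KO cells. A gene was called when its adjusted p was below 0.05 and its FC above 2. The 4 of 4 members called lower stand against 16.8% of 20577 tested genes called, 8.36% lower and 8.45% higher. With voom 2 of the 4, SOX2 and SOX3, were called, and with robust estimation SOX1 and SOX21 were likewise not called. The KO libraries lay below both WT libraries for each member, which held for 33.2% of tested genes.

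SOX2 went from 228 CPM in S3 and 220 in S5 to 12.9 CPM in the KO library S1 and 21.5 in S2. The KO libraries thus still held 258 and 469 counts of SOX2, between the levels of WT HEK293T cells and those of WT NPCs. The pooled ratio of WT to KO was 12.9 (95% counting interval 11.96 to 13.9), and the log2 FC was -3.72 ± 0.233 SE (95% confidence interval -4.27 to -3.17, adjusted p = 0.000107). SOX3 went from 21.8 and 34.6 CPM to 1.64 and 2.30 CPM, with 33 and 50 counts left in the KO libraries. Its pooled ratio of WT to KO was 14.1 (11.3 to 17.8), with a log2 FC of -3.85 ± 0.315 SE (-4.59 to -3.10, adjusted p = 0.000294). The intervals of SOX2 and SOX3 overlap over most of their width, and the difference between the effects on these genes was not tested.

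SOX1, the SOXB1 gene that comes on with neural induction, was near the floor in KO NPCs. KO libraries held 1 and 2 counts, against 154 and 989 in WT NPCs. The pooled ratio of WT to KO was 394 with a wide counting interval of 134 to 1911, and the log2 FC was -8.56 ± 1.28 SE (-11.6 to -5.54, adjusted p = 0.00312). The pooled ratio was 102 without S5 and 708 without S3, with log2 FCs of -6.58 and -9.37. Without S1 or S2 the KO counts lay below the floor of 3 counts, and the ratio was at least 205 and 189. SOX21, the SOXB2 repressor, went from 74 and 950 counts in WT NPCs to 0 in S1 and S2. Against the floor of 3 counts over the KO group it was at least 353-fold lower, with an adjusted p of 0.0134. The WT library S3 held only 3.52 CPM of SOX21, and the bound was 49.1-fold without S5, 680-fold without S3, and 183- and 169-fold without S1 or S2. With voom in limma, the tool of the study's methods, SOX1 and SOX21 were not called (adjusted p = 0.200 and 0.304), and neither were they with robust dispersion estimation in edgeR (0.0785 and 0.254). SOX2 and SOX3 were called with each of these. The median log2 FC of the 4 was -6.20, or -6.15 with SOX1 and SOX21 at their bounds, against -0.022 over all genes tested.

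The summed level of the 4 genes was 104 and 132 CPM per kb in WT NPCs and 5.92 and 9.70 CPM per kb in KO NPCs. SOX2 held 86.5 and 88.4% of it in the KO libraries, SOX3 held 13.3 and 11.4%, and SOX1 0.185 and 0.208%. In the WT library S3 the shares were 87.2% for SOX2 and 10.1% for SOX3. SOX21, which held 1.16 and 12.6% of the summed level in the WT libraries, was at 0.

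In HEK293T cells 0 of 3 members tested were called in ZNF274 KO cells by edgeR, DESeq2 or voom, and 1, SOX3, had an unadjusted p below 0.05. SOX1 had 1 count over the 6 libraries and was not tested. In this comparison 0.489% of 19018 genes were called, 0.478% of all tested higher and 0.0105% lower, and 1354 genes had an unadjusted p below 0.05. SOX2 was at 8.96, 11.0 and 8.55 CPM in WT cells and at 6.04, 7.24 and 9.01 CPM in KO cells, so that the groups overlap. The log2 FC was -0.35 ± 0.226 SE (-0.85 to 0.15, adjusted p = 0.801). SOX21 was at 2.66, 4.04 and 2.06 CPM in WT cells and at 1.56, 2.87 and 3.39 CPM in KO cells, with a log2 FC of -0.15 ± 0.366 SE (-0.96 to 0.65, adjusted p = 0.950). These intervals of SOX2 and SOX21 both leave out a 2-fold decrease, which is smaller than the decrease of either gene in NPCs. That depended on the setting. With all 10 libraries in a single fit SOX21 was at -0.15 ± 0.700 SE. Without KO S20, SOX2 was at -0.51 ± 0.253 SE and SOX21 at -0.38 ± 0.411 SE. Intervals of these widths reach a 2-fold decrease.

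In HEK293T cells SOX3 had few counts, and its KO effect was not tested against that of SOX2 or SOX21. WT cells gave 4, 2 and 3 counts, and KO cells gave 14, 8 and 13, at 0.608, 0.245 and 0.484 CPM. All KO libraries lay above all WT libraries, as for 7.07% of tested genes. The log2 FC was 2.08 ± 0.661 SE (0.62 to 3.53, unadjusted p = 0.00948), and the pooled ratio of KO to WT was 4.18 (95% counting interval 1.97 to 9.88). The adjusted p was 0.480, so that SOX3 was not called, nor was it with DESeq2 or voom. Over the alternatives the adjusted p ran from 0.155 to 0.9999, and edgeR's filterByExpr left SOX3 out of the test. The level in KO HEK293T cells remained below that of KO NPCs.

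**Figure D4:**
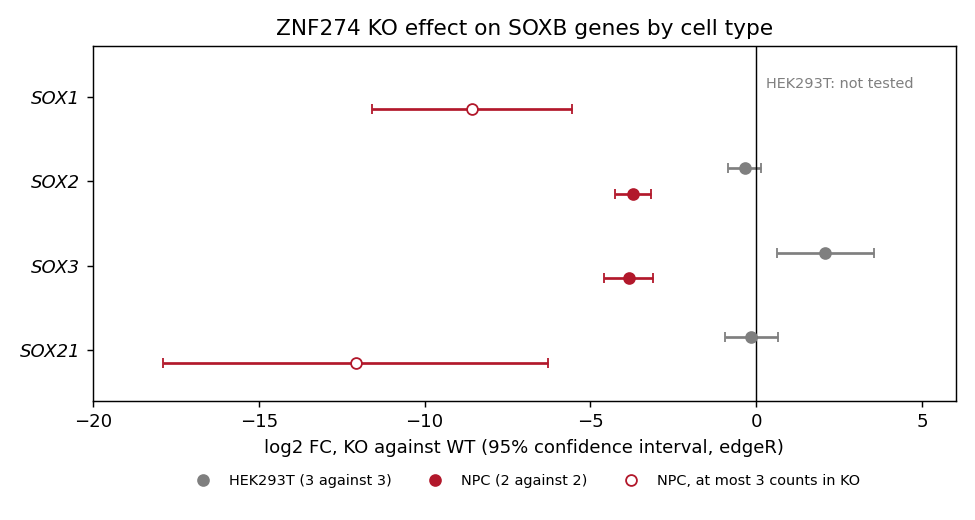
KO effect on each SOXB gene as log2 FC of KO against WT, with the 95% confidence interval from edgeR, in HEK293T cells (grey, 3 against 3 libraries) and NPCs (red, 2 against 2). Open symbols are genes with at most 3 counts in the KO group, whose fitted value depends on the prior count, and SOX1 was not tested in HEK293T cells. All intervals in NPCs lie below 0, those of SOX2 and SOX21 in HEK293T cells include 0, and that of SOX3 in HEK293T cells runs from 0.62 to 3.53.

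The KO effect differed between the cell types for SOX2, SOX3 and SOX21 by the interaction term over all 10 libraries. The effect in NPCs minus that in HEK293T cells was -3.35 ± 0.324 SE on the log2 scale for SOX2 (adjusted p = 5.36e-05) and -5.88 ± 0.628 SE for SOX3 (adjusted p = 0.000110). For SOX21 the adjusted p was 0.00303, and the fitted difference of -12.22 is no bound because its KO NPC libraries are at 0. For SOX1, with 1 count over all HEK293T libraries, the term was not called (-10.36 ± 5.04 SE, adjusted p = 0.203). With DESeq2 the SOX1 term was called (-9.75, adjusted p = 6.88e-05). The 3 of 4 members called lower stand against 6.22% of 19255 genes called lower, and 12.2% called in either direction. With voom the adjusted p for SOX21 was 0.0698.

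Noncoding genes surround 3 of the members, and they fell with them in NPCs. SOX2-OT (chromosome 3, 180707550 to 181554668) spans SOX2 on the same strand. It had 291 and 285 counts in WT NPCs and 16 and 21 in KO NPCs (log2 FC -4.02 ± 0.278 SE, adjusted p = 0.000158). SOX21-AS1 (chromosome 13, 95355708 to 95455684), which runs across SOX21 on the opposite strand, went from 65 and 536 counts in WT NPCs to 0 in S1 and S2, which is lower by at least 207-fold (adjusted p = 0.00947). That bound was 43.1-fold without S5, 384-fold without S3, and 108- and 99.3-fold without S1 or S2. SOX1-OT (chromosome 13, 112711159 to 112762329), which spans SOX1 on the same strand, had 7 and 19 counts in WT and 0 and 1 in KO NPCs, with an adjusted p of 0.0394. SOX1-OT was called by edgeR alone, SOX21-AS1 also by DESeq2, and SOX2-OT by edgeR, DESeq2 and voom. SOX21-AS1 and SOX21 shared their order of libraries in NPCs, with S5 above S3 and both above the KO libraries. No exon base of a noncoding gene lies within an exon of its member in the annotation used. The libraries were stranded, but the strand setting of the counting is not given in the sources used here, so unspliced reads of SOX21 and SOX21-AS1 may not be separated in full. In HEK293T cells SOX21-AS1 was at 4.98, 5.93 and 3.58 CPM in WT and 5.25, 6.63 and 7.04 CPM in KO cells, and was not called (log2 FC 0.39 ± 0.260 SE, adjusted p = 0.809). SOX2-OT was at 0.153 CPM or less in the 6 HEK293T libraries and was not called (log2 FC 0.71 ± 0.860 SE, adjusted p = 0.900), while SOX1-OT was not analysed in HEK293T cells.

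Among POU factors, which bind DNA beside SOXB1 proteins, 3 of 4 tested were called lower in KO NPCs, against 8.36% of all tested genes. POU3F3 (BRN1) had 705 and 707 counts in WT and 10 and 6 in KO NPCs, with a log2 FC of -6.50 ± 0.289 SE. POU3F2 (BRN2) had 823 and 2710 counts in WT and 25 and 12 in KO NPCs, with a log2 FC of -6.65 ± 0.738 SE. POU3F4 had 4 and 20 counts in WT and 0 in KO NPCs, at least 8.26-fold lower, a bound of 2.66-fold without S5, 14.3-fold without S3, and 4.30- and 3.96-fold without S1 or S2, and was not called with voom. POU3F1 was at 0.666 and 0.769 CPM in WT and 1.05 and 0.322 CPM in KO NPCs and was not called. HEK293T cells express POU3F2 at 23.4 to 42.3 CPM and POU3F3 at 14.4 to 18.4 CPM. There 0 of 4 POU genes tested were called by edgeR, DESeq2 or voom, with 0 at an unadjusted p below 0.05. The set differed from that in NPCs, being POU3F1, POU3F2, POU3F3 and POU5F1. POU5F1 had 4 counts in WT and 3 in KO HEK293T cells, and POU3F4 was at 0 in both.

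Of 12 other SOX genes tested in NPCs, 2 were called lower and 2 higher, against 8.36% and 8.45% of all tested genes. Their median log2 FC was -0.57, against -0.022 over all genes. SOX11 and SOX4, the SOXC genes of newborn neurons and progenitors, had log2 FCs of -0.47 ± 0.184 SE and -0.67 ± 0.173 SE and were not called (adjusted p = 0.103 and 0.0267). SOX11 was at 127 and 190 CPM in WT and 116 and 116 CPM in KO NPCs. SOX12 and SOX6, with log2 FCs of -0.97 and -0.96 (adjusted p = 0.00172 and 0.00383), passed the adjusted p but not the 2-fold limit, as did SOX4. The SOXD genes SOX5 and SOX13 fell, with log2 FCs of -2.71 ± 0.391 SE and -1.84 ± 0.333 SE.

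The SOX genes that rose were SOX9 and SOX10, which belong to the SOXE group, while SOX8, the other SOXE gene, was not called (log2 FC 0.15 ± 0.501 SE). SOX9, a factor of glia, neural crest and cartilage, was at 38.4 and 22.1 CPM in WT and 103 and 87.1 CPM in KO NPCs (log2 FC 1.64 ± 0.250 SE, adjusted p = 0.00341). SOX10, a factor of neural crest and myelinating glia, had 0 and 2 counts in WT and 146 and 31 counts in KO NPCs, at least 57.1-fold higher against the floor (adjusted p = 0.00870). The bound ranged from 19.2-fold without S1 to 98.2-fold without S2, and was 27.5- and 29.6-fold without S3 or S5. With voom SOX10 was not called. In HEK293T cells 0 of 10 other SOX genes tested were called by edgeR, DESeq2 or voom, and 0 had an unadjusted p below 0.05 with any of these tools.

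**Figure D5:**
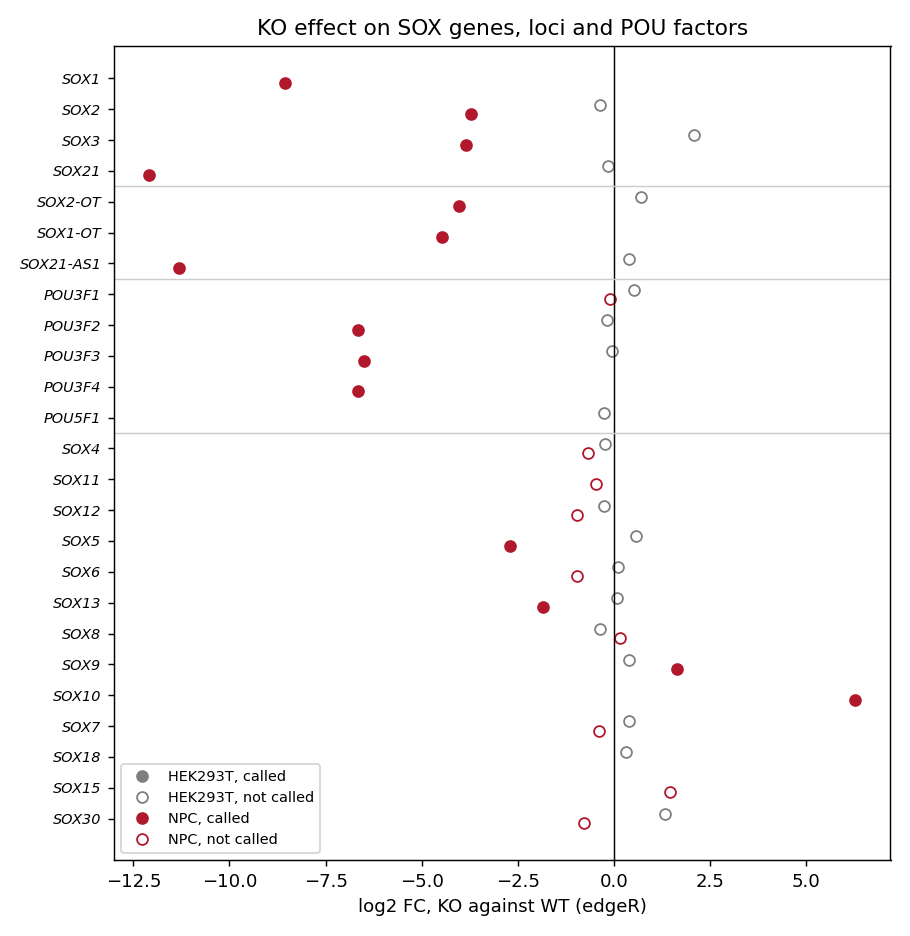
KO effect (log2 FC of KO against WT, edgeR) in HEK293T cells (grey) and NPCs (red) for SOXB genes, noncoding genes at their loci, POU factors and other SOX genes, separated by horizontal lines. Filled symbols were called. In NPCs the SOXB genes, the noncoding genes and 3 POU factors lie at -3.72 or lower, while other SOX genes range from -2.71 for SOX5 to 6.28 for SOX10.

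Markers of other cell states moved with the SOXB genes in NPCs, and their part in the result was not tested. Of 17 neural progenitor genes tested, 8 were called lower and 0 higher, with a median log2 FC of -1.30, against 8.36% of all tested genes called lower and a median of -0.022. With voom 7 were called, without GLI3. The called genes with the highest levels were FABP7 of radial glia (log2 FC -6.69 ± 0.452 SE), GLI3, a mediator of hedgehog signalling (-1.04 ± 0.214 SE), PAX6 (-1.30 ± 0.224 SE), the RNA-binding protein gene MSI1 (-2.57 ± 0.294 SE) and OTX2 of the forebrain and midbrain (-1.56 ± 0.263 SE). SIX3, a forebrain factor named here after its values were seen, had 490 and 487 counts in WT and 0 in KO NPCs. NES and VIM were not called, with log2 FCs of 0.25 and 0.08, and the summed level of the list, which these genes dominate, was 10156 to 10283 CPM in WT and 10175 to 10805 CPM in KO NPCs. Of 10 neuron markers, MAP2, DCX, ELAVL3 and SYT1 were called lower and ELAVL4 higher, the latter with edgeR alone of the 3 tools. The sum of all 10 neuron markers went from 1088 to 1178 CPM in WT to 178 to 221 CPM in KO NPCs, most of it MAP2. Without MAP2 it was 90.3 and 86.7 CPM in WT and 53.8 and 46.3 CPM in KO NPCs. TUBB3 and STMN2 were not called (log2 FC -0.06 ± 0.363 SE and 0.32 ± 0.260 SE). Of 4 pluripotency markers tested, LIN28A was called lower (log2 FC -5.62 ± 0.272 SE) and ZFP42 higher (3.17 ± 0.736 SE), while DPPA4 and NANOG were not called.

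Of 15 mesenchymal markers tested in NPCs, 8 were called higher and 0 lower, against 8.45% of all tested genes called higher. DESeq2 called 9, with PRRX1 added, and voom 6, without POSTN and TWIST1. Among those called by all 3 tools were COL1A1 (log2 FC 2.53 ± 0.115 SE), TAGLN (1.89 ± 0.145 SE) and COL3A1 (3.59 ± 0.346 SE). The summed level of all 15 markers was 2549 to 3199 CPM in WT and 9378 to 10235 CPM in KO NPCs. This sum includes COL1A2, which was not called (log2 FC 0.07 ± 0.353 SE). Of 8 neural crest markers, 4 were called higher, PAX3, MSX2, NGFR and SOX10, of which DESeq2 did not call MSX2, voom did not call NGFR or SOX10, and PAX3 alone was called by all 3 tools. In edgeR 0 were called lower, and 2 had a log2 FC below 0, MSX1 and TFAP2A. MSX1 was at 32.9 CPM in S3 and 4.62 CPM in S5, and at 3.95 to 8.22 CPM in KO NPCs. It was not called (log2 FC -1.64 ± 0.799 SE, adjusted p = 0.172). The sum of the list went from 12.9 to 49.6 CPM in WT to 103 to 143 CPM in KO NPCs. TFAP2A, a defining crest gene, stayed at 0.821 CPM or less in all NPC libraries, and FOXD3 was at 0 in the WT and at 0.498 and 0.0919 CPM in the KO libraries. Of 6 markers of simple epithelium, KRT18, KRT8 and KRT7 were called higher. CDH1, the cadherin of epithelia, stayed at 0.230 CPM or less. Of the endoderm and kidney lineage lists, 0 of 2 and 0 of 4 tested were called by edgeR, DESeq2 or voom, although 1 and 2 of them had an unadjusted p below 0.05 in edgeR. In HEK293T cells 0 genes of the 11 lists beside the members were called by any of the 3 tools, and 3 had an unadjusted p below 0.05 in edgeR. The median log2 FC of the lists over NPCs was 1.81 for mesenchymal, 2.89 for neural crest (2.10 with genes near the floor at their bounds) and 1.65 for simple epithelium markers (1.03 with bounds), against -0.022 over all genes.

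Over the 10 libraries the levels of SOX2 and SOX3 followed each other most closely among the members, with Pearson r = 0.963 on log2(CPM + 0.5). SOX1 had r = 0.935 with SOX2 and 0.927 with SOX3. SOX21, which was above 1 CPM in every HEK293T library and at 0 in KO NPCs, had r = 0.726 with SOX1, 0.516 with SOX2 and 0.435 with SOX3. The points of these correlations are libraries of 4 groups and share cell type and genotype, so they describe the pattern alone. Among 12471 protein-coding genes, those most like SOX2 were BTBD17 (r = 0.993), DNER (0.990), a ligand of Notch, and SEL1L3 (0.989). Those most like SOX3 were MAP6 (0.993), NSD2 (0.992) and LIN28A (0.991). VTCN1 (0.997), PHLPP1 (0.994) and GRIN2A (0.992) were most like SOX1. FZD7 (0.951), RGMA (0.948) and PPP1R16B (0.944) were most like SOX21. With Spearman's rho in place of Pearson's r, 0 of these 3 genes remained for any member.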

How the data were processed

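RNA was sequenced from stranded poly(A) libraries. Per the submitters' notes, the authors used HISAT2 with the hg19 genome, then featureCounts on reads that mapped once, and deposited raw counts per gene, with a table of 22750 genes for HEK293T cells and one of 20965 for NPCs. Versions are not given in the sources used here. Symbols came from GENCODE lifted to hg19, which held 23273 of the 24050 identifiers.

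The quasi-likelihood test of edgeR 4.0.16 (R 4.3.3) was run on TMM-normalized counts, separately for HEK293T cells and NPCs, with p adjusted by Benjamini-Hochberg. Genes entered if their counts summed to the number of libraries or more. The interaction and the WT contrast used all 10 libraries and 19255 genes in both tables. Calls required more than a 2-fold change at an adjusted p under 0.05. The study's methods use voom (limma 3.58.1), run here as an alternative with DESeq2 1.42.0, other scalings, filters, robust estimation and left-out libraries. Counting intervals are exact at 95%. SE was calculated back from the test statistic. On simulated counts with 200 changed genes, 97.5% were recovered in the NPC design over 20215 genes and 99% in the HEK293T design over 18692 genes. False calls were 5.34% and 3.88%, and for the interaction (91% recovered over 19161 genes) 8.08%. The changed genes were drawn only from those with many counts, and their changes were well above 2-fold. Recovery of smaller changes, or of changes in genes near the floor such as SOX3 in HEK293T cells, was not simulated.

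The members and lists were chosen with earlier results of these data known. The rule for named genes took the members, ZNF274, all other SOX, POU and noncoding genes listed, up to 5 genes by mean CPM in each marker list (called genes first) and, for each member, the 3 protein-coding genes with a mean of at least 1 CPM and the highest Pearson r on log2(CPM + 0.5). Marker lists covered neural progenitor, neuron, pluripotency, mesenchymal, neural crest, endoderm, simple epithelium and kidney lineage genes. Transposable elements and other assays were not analysed here.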

Additional observations from a re-analysis of the deposited data

Results flagged for a closer look

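The KO effect differed between NPCs and HEK293T cells, by the interaction term of edgeR over all 10 libraries, for SOXB genes and for genes of the lists beside them. On the log2 scale, NPC effect minus HEK293T effect, the difference was -3.35 for SOX2 (adjusted p = 5.36e-05), -5.88 for SOX3 (0.000110) and -12.22 for SOX21 (0.00303). Among noncoding genes it was -4.72 for SOX2-OT (adjusted p = 0.000944) and -11.98 for SOX21-AS1 (0.00114). Among POU factors it was -6.47 for POU3F2 (adjusted p = 0.000118) and -6.43 for POU3F3 (1.12e-06). Among other SOX genes it was -3.27 for SOX5 (adjusted p = 0.00188), -1.91 for SOX13 (0.0179) and 1.27 for SOX9 (0.0286). The fitted values of SOX21 and SOX21-AS1 rest on KO NPC libraries at 0 and are no bounds. The direction was that of the interaction in both KO NPC libraries against both WT NPC libraries for each of these genes. No group held 4 or more libraries, so single libraries were not tested for standing apart.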

How the results depend on the processing

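SOX2 and SOX3 kept their direction and their call in NPCs under every alternative run, with log2 FCs of -4.14 to -3.40 and -4.14 to -3.48, and likewise in the interaction and the WT contrast. In NPCs SOX1 and SOX21 were not called with voom (log2 FC -7.67, adjusted p = 0.200, and -9.06, adjusted p = 0.304) nor with robust estimation (-8.56, adjusted p = 0.0785, and -12.08, adjusted p = 0.254). With a library left out, their log2 FCs were -9.37 to -6.58 and -12.97 to -9.22. An arm of 1 library is then assumed to vary like the others. Without S3 or S5 the spread between the WT libraries drops out of the error, so these fits cannot decide whether the calls hold. In the interaction SOX1 was called with DESeq2 (-9.75, adjusted p = 6.88e-05). Its left-out values there ran from -11.19, without the WT NPC library S3, to -8.43. SOX21 was not called in the interaction with voom (-8.91, adjusted p = 0.0698). In the WT contrast SOX1 ran from 10.57 to 13.36 with a library left out. SOX21 there was not called with voom (2.18, adjusted p = 0.0582), and with a library left out ran from 0.27, without S5 (adjusted p = 0.704), to 4.06. In HEK293T cells SOX21 turned to 0.15 without WT S16 and to 0.10 without KO S18, in a range from -0.38 to 0.15, and was called in no setting. The causes were not tested.

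Over all genes, DESeq2 called 164 genes in HEK293T cells, 153 higher and 11 lower, against 93, 91 and 2. With a library left out the calls were 44 to 116 (42 to 101 higher, 1 to 18 lower) in HEK293T cells, 2084 to 4038 (1141 to 2011 higher, 943 to 2033 lower) in NPCs and 1455 to 2494 (808 to 1258 higher, 647 to 1265 lower) for the interaction. The lowest numbers of calls in all came without WT S16, KO S1 and KO S1. In HEK293T cells the lower calls numbered 1 without WT S15, 5 without KO S18 and 18 without KO S20. Counts were also more than 1.5 times lower without WT S15 (57) or WT S17 (61) in HEK293T cells, and without KO S2 in NPCs for lower calls (1097) and in the interaction (1531, 718 lower). With library size alone the median log2 FC of all genes moved from -0.022 to -0.13 in NPCs and from -0.025 to -0.24 in the interaction, where the share of higher calls went from 49.2 to 33.1%. The lists with DESeq2 and voom, medians with genes near the floor at their bounds, bounds without each NPC library and the neuron sum without MAP2 were added after seeing the data.

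No paired analysis was possible because WT and KO libraries share no number, clone or batch in the labels. For a figure of NPC expression the paper describes averages over 2 parental cell lines. The labels do not assign a library to a line, so whether S3 and S5 come from separate lines could not be checked. A group of 2 or 3 libraries limits the precision of all values. The counting interval of the SOX1 ratio covers counting error only, and does not take in the ratio of 102 without S5.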
